A study of Mus musculus with 12 samples.

Results

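Fc receptors bind the constant part of antibodies, and ITAM adaptors are short membrane proteins whose tyrosine motif carries the signal of receptors that lack such a motif. The 9 genes described here are the activating IgG receptors Fcgr1, Fcgr3 and Fcgr4, the inhibitory IgG receptor Fcgr2b, the adaptors Fcer1g and Tyrobp (DAP12), and the kinases Lyn, Syk and Btk. They were chosen by symbol from a count table of 24421 gene symbols, and all 9 were in it. Clustering of the activating receptors by antibody leads kinases of the Src family, such as Lyn, to phosphorylate the ITAM, which then binds and activates Syk. Syk passes the signal on through adaptors, phospholipase C gamma and Btk, while Fcgr2b carries an inhibitory motif that recruits the lipid phosphatase SHIP-1. Monocytes, macrophages and neutrophils use this pathway for phagocytosis, and B cells carry Fcgr2b and use Lyn, Syk and Btk below their antigen receptor.

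RNA was measured in GFP-positive LSK cells, marrow cells without lineage markers that carry Kit and Sca-1, a gate for blood stem cells and early progenitors. The cells came from secondary recipient mice that had received transplanted marrow progenitors of 4 genotypes, with 3 libraries each and 12 in all. The genotypes were miR146aKO (no miR-146a, titled Mir-146 KO/Empty), Runx1mut (the frameshift form Runx1S291fsX300), miR146aKO_Runx1mut (both) and wildtype (wildtype for both, titled Empty). The labels do not say what Empty is, how mutant Runx1 was brought in, or the strain, age or sex of the mice. Nor do they say whether the 3 libraries of each genotype are separate mice, and p-values then cover the spread among libraries alone, which may be technical.

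Total counts ran from 3540043 to 7026393 per library. The columns name the genotype without a replicate number, so libraries go by the identifier that heads their column. Mir146 had 14 counts in A031, a library labelled miR146aKO_Runx1mut, and 0 in the other 11 libraries, those with intact miR-146a included. The 0 counts therefore check no label, and the counts in A031 go against its label, which was kept as given. The gate markers Kit and Ly6a (Sca-1) had counts in all 12 libraries. Kit stood at 24.6 to 59.7 CPM in miR146aKO, 101 to 711 in Runx1mut, 164 to 219 in miR146aKO_Runx1mut and 218 to 436 in wildtype. Ly6a differed from Kit and was highest in miR146aKO. It ranged from 505 to 1019 CPM there, 20.4 to 222 in Runx1mut, 12.1 to 121 in miR146aKO_Runx1mut and 46.0 to 216 in wildtype. CPM are read counts scaled to a common library size, with TMM factors.

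2 sequence sets bear on the alleles compared. The first is miR-146a-5p, which is missing in the 2 knockout genotypes, with the matches to its seed (bases 2 to 8) in 3' untranslated regions of the members. The microRNA lies at chr11:43374435-43374456 on the minus strand (RefSeq, GRCm38.p6), and its seed is in capitals. A match AGTTCTC occurred 1 time each in Fcgr2b and Syk and in none of the other 7 members, against 11.4% of 19511 genes with such a region. The capitals in the 2 windows mark the match. A match of these letters is a description of the sequence and not a shown target site.
mmu-miR-146a-5p: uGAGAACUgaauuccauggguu
Syk: gagcaagaAGTTCTCtgctgagc
Fcgr2b: gtaacaggAGTTCTCaggaagtc

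The second set is promoters with a RUNX core (TGTGGT or its reverse complement ACCACA), since the other altered gene is a RUNX factor. RefSeq promoters of 250 bases before to 50 after the start (GRCm38.p6) were given for 7 of the 9 members and were searched on both strands. A RUNX core occurred 2 times in Fcgr4 and 1 time in Fcer1g and in none of Fcgr1, Fcgr2b, Fcgr3, Syk and Btk, against 16.8% of 32851 promoters. A core of the type bound by PU.1 (GAGGAA or TTCCTC) occurred 1 time each in Fcgr1, Fcgr3, Fcgr4, Btk and the second promoter of Syk, against 28.3% of all promoters. The matches in Fcgr4 do not overlap each other. The Fcgr4 promoter is chr1:171018676-171018975 on the plus strand and the Fcer1g promoter chr1:171234300-171234599 on the minus strand, with each match in capitals.
Fcgr4: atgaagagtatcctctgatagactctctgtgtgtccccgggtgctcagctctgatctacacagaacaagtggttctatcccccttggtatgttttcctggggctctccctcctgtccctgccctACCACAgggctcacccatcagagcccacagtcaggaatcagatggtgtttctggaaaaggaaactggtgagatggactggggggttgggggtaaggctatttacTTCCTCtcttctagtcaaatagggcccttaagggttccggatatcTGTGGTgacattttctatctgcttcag
Fcer1g: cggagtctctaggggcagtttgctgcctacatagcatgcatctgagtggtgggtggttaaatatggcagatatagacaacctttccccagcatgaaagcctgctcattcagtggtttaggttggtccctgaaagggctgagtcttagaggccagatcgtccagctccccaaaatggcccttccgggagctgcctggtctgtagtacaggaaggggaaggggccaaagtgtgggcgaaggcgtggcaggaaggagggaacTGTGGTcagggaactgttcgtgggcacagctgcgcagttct

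All 3 activating receptors stood lowest in wildtype. Fcgr1, the high-affinity receptor (chromosome 3, 96282909 to 96293969, minus strand, GRCm38), was at 0, 85.4 and 113 CPM in the miR146aKO libraries A047, A150 and A151. It was at 0, 0.142 and 4.11 CPM in the Runx1mut libraries A021, A042 and A058, at 4.82, 6.75 and 58.4 in the miR146aKO_Runx1mut libraries A001, A031 and A051, and at 0.274, 1.33 and 0 in the wildtype libraries A015, A040 and A053. These orders of libraries hold below. Fcgr1 was thus near 0 in wildtype (8 counts in all) and in 2 of 3 Runx1mut libraries, was high in 2 of 3 miR146aKO libraries, and did not overlap between miR146aKO_Runx1mut and wildtype. The 0 in A047 allows up to 3 counts, or 0.948 CPM. Its fitted log2 fold change against wildtype was 7.01 ± 2.19 (SE) in miR146aKO (edgeR adjusted p = 0.152) and 5.50 ± 2.07 in miR146aKO_Runx1mut (edgeR adjusted p = 0.475). The second value was 3.5 without A051. In bulk libraries, fewer cells of a type and less RNA per cell cannot be told apart.

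Fcgr3, a low-affinity activating receptor (chromosome 1, 171051174 to 171064935, minus strand), was at 0.632, 105 and 130.0 CPM in miR146aKO and at 126, 10.1 and 128 in Runx1mut. It was at 71.3, 67.3 and 135 CPM in miR146aKO_Runx1mut and at 1.92, 20.0 and 5.27 in wildtype. The miR146aKO_Runx1mut libraries lay above wildtype without overlap, while A047 of miR146aKO lay below every wildtype library and A042 of Runx1mut lay among them. The log2 fold changes against wildtype were 3.13 ± 1.28 in miR146aKO, 3.29 ± 1.29 in Runx1mut and 3.35 ± 1.29 in miR146aKO_Runx1mut, with edgeR adjusted p = 0.256, 0.806 and 0.475 in that order.

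Fcgr4, a further activating receptor, which binds IgG2a and IgG2b (chromosome 1, 171018920 to 171029761, plus strand), had the largest fitted fold change of the members in miR146aKO_Runx1mut against wildtype. It was at 16.8, 24.9 and 19.0 CPM in miR146aKO, at 12.3, 0.285 and 12.8 in Runx1mut, at 174, 12.8 and 62.1 in miR146aKO_Runx1mut, and at 0.547, 1.33 and 0.285 in wildtype (12 counts in all). All libraries of both genotypes without miR-146a lay above wildtype, and A042 was the only altered library at the wildtype level. The log2 fold change was 4.83 ± 1.25 in miR146aKO (edgeR adjusted p = 0.103), 3.57 ± 1.19 in Runx1mut (edgeR adjusted p = 0.742) and 6.86 ± 1.35 in miR146aKO_Runx1mut (edgeR adjusted p = 0.302). Without A031, whose Mir146 counts go against its label, the last value was 7.37 ± 1.27 (edgeR adjusted p = 0.170). Averaged over both Runx1 backgrounds, loss of miR-146a gave 4.06 ± 0.84 (edgeR adjusted p = 0.0514). That average came out at 4.31 ± 0.78 without A031 (edgeR adjusted p = 0.0302, range over its 18 alternatives 6.20e-06 to 0.231).

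Fcgr2b, the inhibitory receptor (chromosome 1, 170958617 to 170976547, minus strand), was the most even member within miR146aKO. It was at 51.2, 50.3 and 54.0 CPM in miR146aKO, at 37.5, 32.7 and 100.4 in Runx1mut, at 30.8, 22.4 and 49.2 in miR146aKO_Runx1mut, and at 1.92, 17.3 and 2.42 in wildtype. All 9 altered libraries lay above the 3 of wildtype, which held for no other member and for 0.643% of tested genes. The log2 fold changes against wildtype were 2.86 ± 0.82 in miR146aKO (edgeR adjusted p = 0.125), 2.99 ± 0.82 in Runx1mut (edgeR adjusted p = 0.608) and 2.26 ± 0.80 in miR146aKO_Runx1mut (edgeR adjusted p = 0.475). Without A040, the highest wildtype library, they were 4.52, 4.66 and 3.88. Fcgr2b and Fcgr3 share 166 stretches of 50 exonic bases, which is 12.3% of those of Fcgr3 and 4.48% of those of Fcgr2b, so reads there could be split between them. Another gene, Gm38204 on the other strand, covers 155 exonic bases of Fcgr2b. Fcgr2b, Fcgr4, Fcgr3 and Fcer1g are neighbours on chromosome 1.

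**Figure D1:**
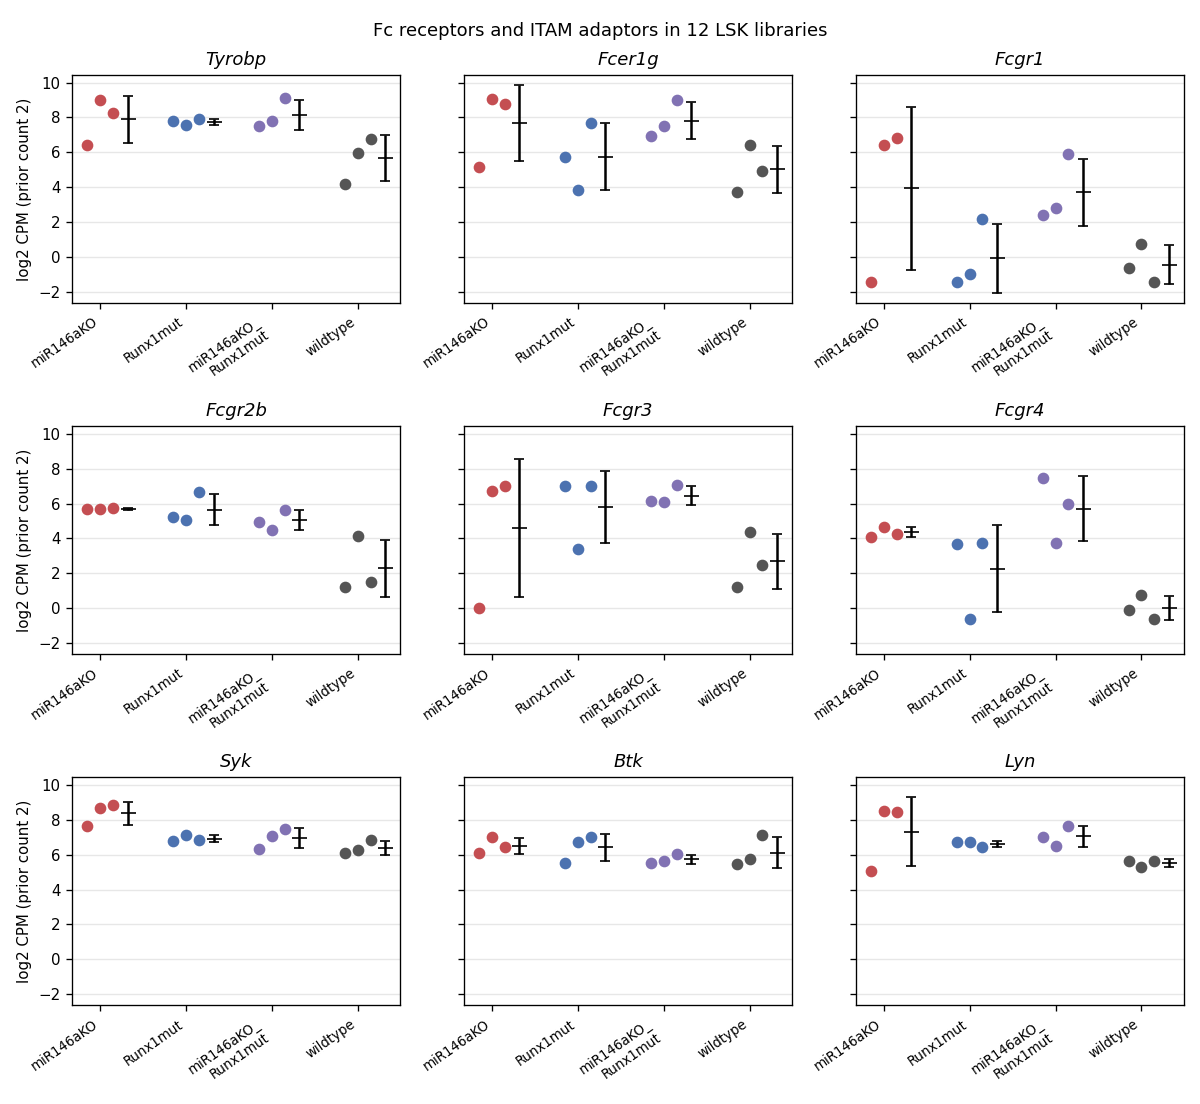
log2 CPM (prior count 2) of the 9 members in the 12 libraries, 1 panel a gene, with 1 point per library in the order used in the text and the mean ± SD (n = 3) beside each genotype. Fcgr2b and Fcgr4 sit above all wildtype libraries in miR146aKO, A047 is the low miR146aKO point of Fcgr1, Fcgr3, Fcer1g and Lyn, and Btk overlaps wildtype in every altered genotype.

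Per kb of exonic length, the 4 receptors made up different shares in different libraries. In miR146aKO, Fcgr3 took 1.72%, 54.0% and 56.9% of their summed CPM per kb, and Fcgr1 took 0%, 23.0% and 25.8%. In Runx1mut, Fcgr3 took 82.7%, 45.8% and 71.3%, and in miR146aKO_Runx1mut 26.3%, 72.8% and 54.2%, where Fcgr4 took 68.8%, 14.8% and 26.7%. In wildtype Fcgr3 took 57.7%, 70.8% and 81.9%. Fcgr3 was thus the leading receptor in 9 of 12 libraries, and the exceptions were A047 and A042, led by Fcgr2b (49.3% and 52.5%), and A001, led by Fcgr4. In A047 Fcgr4 was nearly level with Fcgr2b, at 49.0%. The 3 activating receptors summed to 1.03, 9.87 and 11 times Fcgr2b in miR146aKO, 10.5, 0.906 and 4.04 times in Runx1mut, 23.9, 10.7 and 13.3 times in miR146aKO_Runx1mut, and 3.91, 3.61 and 6.51 times in wildtype. All miR146aKO_Runx1mut libraries lay above wildtype in this ratio, while the miR146aKO and Runx1mut libraries lay on both sides. The shares rest on 217 to 1630 counts in altered libraries but on 34 to 180 in wildtype, so the wildtype shares are the least precise.

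**Figure D2:**
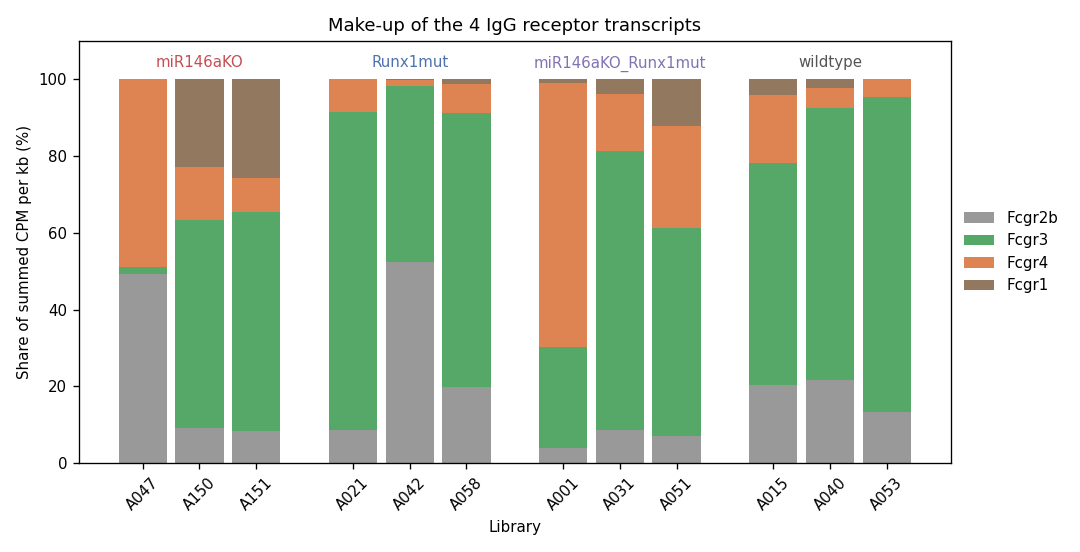
Shares (%) of Fcgr2b, Fcgr3, Fcgr4 and Fcgr1 in their summed CPM per kb in each library, grouped by genotype. Fcgr3 leads in 9 of 12 libraries, and A047, A042 and A001 differ, with 49.3% and 52.5% Fcgr2b in A047 and A042 and 68.8% Fcgr4 in A001. Fcgr4 takes 49.0% in A047.

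The 2 adaptors had the highest means per length of the members in every genotype, but not the highest values in every library. Tyrobp averaged 540 ± 389 CPM per kb in miR146aKO, 387 ± 46.1 in Runx1mut, 566 ± 370 in miR146aKO_Runx1mut and 113 ± 82.1 in wildtype (SD, n = 3). Fcer1g averaged 453 ± 357, 120 ± 133, 366 ± 283 and 57.2 ± 50.6 CPM per kb in the same order. Its Runx1mut mean rests on A058 (271). Fcer1g was at 70.9 in A021, below Fcgr3 (93.8), and at 18.8 in A042, below Btk (39.2). The highest mean of any other member was that of Lyn in miR146aKO, at 71.2 ± 53.6 CPM per kb.

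Tyrobp, the adaptor of TREM, CD300 and activating NK receptors (chromosome 7, 30413760 to 30417585, plus strand), was at 83.8, 523 and 307 CPM in miR146aKO. It was at 222, 191 and 242 CPM in Runx1mut, at 179, 220.1 and 559 in miR146aKO_Runx1mut, and at 17.9, 62.8 and 110.5 in wildtype. Both genotypes with mutant Runx1 lay wholly above wildtype, and in miR146aKO only A047 lay within the wildtype range. The log2 fold change was 2.26 ± 0.70 in miR146aKO (edgeR adjusted p = 0.149), 1.78 ± 0.69 in Runx1mut (edgeR adjusted p = 0.802) and 2.32 ± 0.70 in miR146aKO_Runx1mut (edgeR adjusted p = 0.451). The 3 altered genotypes did not separate from each other in Tyrobp.

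Fcer1g, the Fc receptor gamma chain that Fcgr1, Fcgr3 and Fcgr4 need for signalling (chromosome 1, 171229572 to 171234365, minus strand), was at 35.7, 539 and 442 CPM in miR146aKO and at 53.1, 14.1 and 203 in Runx1mut. It was at 124, 181 and 516 CPM in miR146aKO_Runx1mut and at 12.6, 85.3 and 30.5 in wildtype. Only the miR146aKO_Runx1mut libraries lay above wildtype without overlap. The log2 fold change was 2.99 ± 1.06 in miR146aKO (edgeR adjusted p = 0.192), 1.07 ± 1.00 in Runx1mut (edgeR adjusted p = 1) and 2.68 ± 1.05 in miR146aKO_Runx1mut (edgeR adjusted p = 0.478). The Runx1mut value rests on A058, and without that library it was -0.34. The ratio of Tyrobp to Fcer1g per length was 3.11, 1.29 and 0.920 in miR146aKO, 5.54, 18.0 and 1.59 in Runx1mut, 1.91, 1.61 and 1.44 in miR146aKO_Runx1mut, and 1.89, 0.977 and 4.81 in wildtype.

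Syk, the kinase that docks on phosphorylated ITAMs (chromosome 13, 52583173 to 52648792, plus strand), had the smallest p of the members for loss of miR-146a alone. It was at 197, 403 and 455 CPM in miR146aKO, at 112, 141 and 113 in Runx1mut, at 78.6, 136 and 177 in miR146aKO_Runx1mut, and at 67.5, 76.2 and 113 in wildtype. All 3 miR146aKO libraries lay above the other 9, which held for no other member and for 3.52% of tested genes, while the other 3 genotypes overlapped. The log2 fold change of miR146aKO against wildtype was 2.04 ± 0.42 (edgeR adjusted p = 0.0609). That p is just over the threshold of 0.05, and it fell under it in 6 of 19 alternatives (range 0.000398 to 0.436). The fold change itself stayed between 1.66 and 2.33 in all 19. Adding mutant Runx1 to loss of miR-146a gave -1.43 ± 0.42 (edgeR adjusted p = 0.157), with every miR146aKO_Runx1mut library below every miR146aKO library.

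Lyn, a Src family kinase that phosphorylates ITAMs and the inhibitory motif of Fcgr2b (chromosome 4, 3678115 to 3813122, plus strand), was at 32.6, 358 and 349.8 CPM in miR146aKO. It was at 104, 107 and 86.1 CPM in Runx1mut, at 130.1, 88.7 and 201 in miR146aKO_Runx1mut, and at 49.4, 38.2 and 49.7 in wildtype. Both genotypes with mutant Runx1 lay above wildtype without overlap, while miR146aKO held the 2 highest libraries and the lowest of all 12. The log2 fold change was 2.43 ± 0.65 in miR146aKO (edgeR adjusted p = 0.114), 1.11 ± 0.63 in Runx1mut (edgeR adjusted p = 0.956) and 1.61 ± 0.63 in miR146aKO_Runx1mut (edgeR adjusted p = 0.483). Genes on the other strand overlap 248 exonic bases of Lyn, and libraries of this kind do not keep strand, so reads there cannot be told apart.

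Btk, a Tec family kinase that activates phospholipase C gamma (chromosome X, 134542336 to 134583570, minus strand), was the member nearest to wildtype in each altered genotype. It was at 67.3, 127 and 87.9 CPM in miR146aKO, at 45.8, 106 and 127 in Runx1mut, at 46.3, 49.7 and 65.0 in miR146aKO_Runx1mut, and at 44.6, 52.8 and 141 in wildtype. Each altered genotype overlapped wildtype. The log2 fold change of miR146aKO against wildtype was 0.24 ± 0.52 (edgeR adjusted p = 0.874), and its sign turned when A015, A040 or A150 was left out (-0.050, -0.047 and -0.039). In miR146aKO_Runx1mut it was -0.57 ± 0.52 (edgeR adjusted p = 0.763), and 0.10 without A053.

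**Figure D3:**
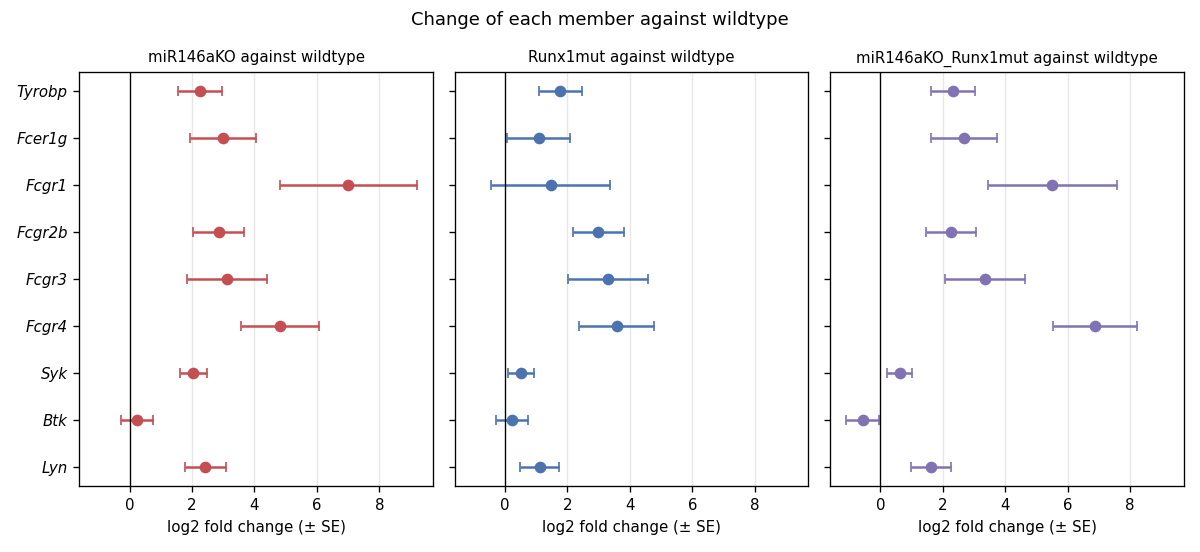
log2 fold change ± SE (edgeR) of each member against wildtype in miR146aKO, Runx1mut and miR146aKO_Runx1mut. 8 of the 9 members lie to the right of 0 in all 3 panels, Btk runs from -0.57 to 0.24, and Fcgr1 (7.01) and Fcgr4 (6.86) are the farthest points.

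Across the whole table, no member was called in any of the 8 comparisons by edgeR at an adjusted p under 0.05. In miR146aKO against wildtype, 0 of 9 members were called, against 0.180% of the 12744 tested genes. At an unadjusted p under 0.05, 8 of 9 members were higher, all but Btk, against 8.81% of tested genes. Libraries did not overlap, with miR146aKO higher, for Fcgr2b, Fcgr4 and Syk (3 of 9), against 10.7% of genes. The median log2 fold change of the members was 2.86, against -0.0030 for all tested genes. Fcgr1 and Fcgr4 passed the low-count filter in no wildtype library, and without them 6 of 7 members were higher at that p, with a median of 2.43. Libraries did not overlap for 2 of those 7.

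In Runx1mut against wildtype 0 members were called, as was 0% of tested genes, and 4 were higher at an unadjusted p under 0.05 (Tyrobp, Fcgr2b, Fcgr3 and Fcgr4), against 2.64%. Without A015, or by limma-voom, 2 were. Libraries did not overlap for Tyrobp, Fcgr2b and Lyn (3 of 9), against 5.72% of genes, and the members' median was 1.46, against 0.0053 for all genes. In miR146aKO_Runx1mut against wildtype 0 were called (0% of genes) and 7 were higher at an unadjusted p under 0.05, all but Syk and Btk, against 4.99%. That count was 2 without A053, 3 without A051, 4 without A015 and 3 with the Y-linked covariate. The same 7 did not overlap between the 2 genotypes, against 6.32% of genes, and the members' median was 2.32, against 0.032. Without Fcgr1 and Fcgr4 the count at that p was 3 of 7 in Runx1mut and 5 of 7 in miR146aKO_Runx1mut. Libraries then did not overlap for 3 of 7 and 5 of 7 members, with medians of 1.11 and 2.26. Without A031 the log2 fold changes of the 7 members that were higher in miR146aKO_Runx1mut ranged from 1.85 (Lyn) to 7.37 (Fcgr4), and 0 were called. The 3 comparisons share the wildtype libraries.

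The remaining comparisons set the double genotype against either single genotype and combine the effects. Against Runx1mut, 0 members were called (0% of genes), Fcgr1 and Fcgr4 were higher at an unadjusted p under 0.05 (either direction 4.63% of genes), and Fcgr1 alone did not overlap (3.85%). There the log2 fold change was 4.04 ± 1.88 for Fcgr1 and 3.29 ± 1.11 for Fcgr4. It was 2.04 without A051 and 7.95 without A058 for Fcgr1, and 2.14 without A001 for Fcgr4. Without these 2 genes, 0 of 7 members passed that p, with a median of 0.097. Against miR146aKO, 0 were called (0.0157%), Syk alone passed the unadjusted p, on the lower side (either direction 14.8%), and Fcgr2b, Syk and Btk lay below miR146aKO without overlap (9.81%). Loss of miR-146a averaged over both Runx1 backgrounds called 0 members (0.400%), and 6 passed the unadjusted p (either direction 11.8%), or 4 of 7 without Fcgr1 and Fcgr4. Mutant Runx1 averaged over both miR-146a backgrounds called 0 (0.0942%), and 2, Fcgr2b and Fcgr4, passed it (12.6%), or 1 of 7 without Fcgr1 and Fcgr4.

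The interaction compares the effect of mutant Runx1 in the 2 miR-146a backgrounds and is negative where that effect was lower without miR-146a. It was negative for all 9 members, which on the log2 scale puts the double genotype below the sum of both single changes. None was called (0.0235% of genes), and 3 passed the unadjusted p (9.46%), which were Fcgr2b (-3.59 ± 1.11), Syk (-1.94 ± 0.58) and Lyn (-1.93 ± 0.88). The members' median was -1.93, against 0.028 for all tested genes, and it was also -1.93 without Fcgr1 and Fcgr4. Both other scalings gave a negative sign for all 9, but without A058 the interaction was positive for Fcer1g (0.034) and Fcgr1 (0.94).

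Whether members were called depended on the tool. DESeq2 on the same 12744 genes called 7 of 9 members in miR146aKO against wildtype, all but Fcgr3 and Btk (6.58% of genes). It called Fcgr2b in Runx1mut (0.902%), Fcgr4 and Tyrobp in miR146aKO_Runx1mut (1.51%), and Syk, on the lower side, in miR146aKO_Runx1mut against miR146aKO (5.12%). It called 5 members for averaged loss of miR-146a (3.95%), 1 for averaged mutant Runx1 (3.15%), and 0 in the double genotype against Runx1mut and in the interaction. With no low-count filter edgeR called 8 in miR146aKO (4.14%), 3 in Runx1mut (0.843%), 5 in miR146aKO_Runx1mut (1.33%), 5 for averaged loss of miR-146a (3.25%) and 2 for averaged mutant Runx1 (2.39%). limma-voom called Syk in miR146aKO against wildtype (0.596%) and 0 members elsewhere.

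1 library also decided some calls. In miR146aKO against wildtype edgeR called Syk and Lyn without A047 (1.00% of genes), Syk and Fcgr4 without A042 (0.756%) and Syk without A001 (0.421%). For averaged loss of miR-146a it called Fcgr4, Syk, Fcgr1 and Lyn without A047 (1.43%) and Fcgr4 without A031 (0.560%).

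Genes of the same pathway were read from 7 lists of 109 genes, of which 89 were tested. Cd79b, an ITAM chain of the B cell antigen receptor, and Dok3, an adaptor that restrains ITAM signalling in B cells and myeloid cells, were the only 2 called in miR146aKO against wildtype. Cd79b rose to 129, 617 and 751 CPM in miR146aKO, against 16.6, 20.2 and 11.7 in wildtype (log2 fold change 4.95 ± 0.78, edgeR adjusted p = 0.0322). Dok3 rose to 98.9, 69.4 and 82.5 CPM in miR146aKO, against 1.92, 4.0 and 3.99 in wildtype (4.66 ± 0.64, edgeR adjusted p = 0.0166). It was also at 117, 28.3 and 62.4 CPM in Runx1mut and at 20.2, 24.7 and 32.7 in miR146aKO_Runx1mut. Every altered library thus lay above every wildtype library in Dok3. The miR146aKO and wildtype libraries of both genes were far apart and did not overlap. Neither was called with the Y-linked covariate or without A015, A040, A053 or A151. Dok3 was also the 1 pathway gene called in the interaction, where it was negative. No pathway gene was called in the interaction by limma-voom, with the Y-linked covariate, or with any 1 library other than A042 left out. No pathway gene was called in Runx1mut or miR146aKO_Runx1mut against wildtype, or in the double genotype against either single one.

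The other chains with an ITAM or a related motif stood higher in miR146aKO than in wildtype for 7 of 7 genes, with 1 called and a list median log2 fold change of 6.40, against -0.0030 for all tested genes. Cd3e, a T cell receptor subunit, was at 644, 8.71 and 2.68 CPM in miR146aKO and at 0.137, 0.222 and 0.142 in wildtype. A047 alone held most of it. Cd79a averaged 195 ± 74.3 CPM in miR146aKO and 2.41 ± 3.68 in wildtype (SD, n = 3 each), and Cd3g 63.8 ± 109 and 0.0456 ± 0.0790. Cd247, the zeta chain, averaged 173 ± 81.9 CPM in miR146aKO and 117 ± 51.8 in wildtype.

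Of 8 other Fc receptors tested, 7 were on the higher side in the miR146aKO libraries, 0 were called, and the median was 6.23. They were led by receptors of B cells. Fcer2a, the low-affinity IgE receptor CD23, was at 8.85, 398 and 270.2 CPM in miR146aKO and at 2.33, 0.222 and 0.142 in wildtype. Fcmr, the IgM receptor, was at 53.4, 332 and 406 CPM in miR146aKO and at 0.274, 4.66 and 0.854 in wildtype. Fcrl1 averaged 54.5 ± 28.4 and 0.0456 ± 0.0790 CPM, and Fcrl5 13.9 ± 14.0 and 0.0475 ± 0.0822, in miR146aKO and in wildtype. Averaged over both Runx1 backgrounds, loss of miR-146a gave 5.70 ± 1.10 for Fcer2a on the log2 scale (edgeR adjusted p = 0.0471). With mutant Runx1, Fcer2a had 2, 2 and 23 counts in miR146aKO_Runx1mut and 0, 1 and 2 in Runx1mut, so that side rests mainly on A051.

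Of 9 tested receptors listed as partners of Fcer1g, 8 were higher in miR146aKO, 8 in miR146aKO_Runx1mut and 7 in Runx1mut, with 0 called and list medians of 5.41, 3.44 and 1.37. With 0 counts in a whole genotype set to a floor of 3 counts, the first median was 5.27 and the others did not move. Clec4n (Dectin-2) was at 0, 49.6 and 49.7 CPM in miR146aKO and at 0, 0.222 and 0 in wildtype. Clec7a (Dectin-1) was on that list, and in its counts and medians, although it carries a signalling motif of its own. It was at 15.8, 34.1 and 25.1 CPM in miR146aKO and at 2.33, 5.55 and 0.427 in wildtype. Pira6, Pira2 and Lilra5 averaged 33.8 ± 33.8, 11.6 ± 11.4 and 8.09 ± 7.43 CPM in miR146aKO, while Pira6 and Pira2 averaged 0.756 ± 1.08 and 0.0949 ± 0.164 in wildtype and Lilra5 had 0 counts there. Of 8 tested partners of Tyrobp, 5 were higher in miR146aKO, and all 8 in Runx1mut and in miR146aKO_Runx1mut, with 0 called and list medians of 2.25, 2.16 (1.89 with that floor) and 2.43. Trem2, a lipid receptor of macrophages, had 0, 342 and 180 counts in miR146aKO, 1, 0 and 20 in Runx1mut, 5, 1 and 140 in miR146aKO_Runx1mut and 0 in every wildtype library. Cd300ld had 0 counts in wildtype as well, and Pilrb1 and Klrk1 averaged 33.7 ± 25.9 and 12.7 ± 8.74 CPM in miR146aKO and 2.73 ± 2.90 and 0.905 ± 1.34 in wildtype.

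Of 9 other tested kinases of the Src, Syk and Tec families, 8 were higher in miR146aKO with 0 called and a median of 1.40. Fgr, a Src family kinase of myeloid cells, was at 11.7, 67.8 and 82.5 CPM in miR146aKO and at 3.15, 6.88 and 0.712 in wildtype. Its libraries did not overlap between the 2 genotypes, and it was not called. Blk, a Src family kinase of B cells, was at 3.16, 100.4 and 166 CPM in miR146aKO and at 0, 0 and 0.285 in wildtype. With mutant Runx1 it had 0, 1 and 77 counts in miR146aKO_Runx1mut and 1 in each Runx1mut library, so A051 alone was higher there. Averaged loss of miR-146a gave 7.32 ± 1.46 for Blk (edgeR adjusted p = 0.0488). This call and that of Fcer2a were lost by limma-voom, with the Y-linked covariate, and without A015, A021, A040, A042, A051, A053, A150 or A151. Lck averaged 58.6 ± 79.4 CPM in miR146aKO and 5.27 ± 4.72 in wildtype. Averaged loss of miR-146a gave Src, the family's namesake, 3.03 ± 1.49 on the log2 scale (edgeR adjusted p = 0.455). Src had 1, 0 and 0 counts in Runx1mut and 0, 9 and 36 in miR146aKO_Runx1mut, so that value rests mainly on few Runx1mut counts. It averaged 3.34 ± 3.01 CPM in miR146aKO and 2.41 ± 2.17 in wildtype.

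Among 21 effectors below Syk, 17 were on the higher side in the miR146aKO libraries, 0 were called, and the median was 0.71. Prkcd, a kinase activated by diacylglycerol, was at 119, 140 and 109 CPM in miR146aKO and at 41.9, 17.1 and 15.7 in wildtype (2.30 ± 0.52, edgeR adjusted p = 0.0717). Pik3ap1 (BCAP), an adaptor of phosphoinositide 3-kinase, was at 46.1, 107 and 55.5 CPM in miR146aKO and at 12.3, 18.9 and 4.13 in wildtype (2.57 ± 0.66, edgeR adjusted p = 0.103). Both genes separated the 2 genotypes without overlap. Blnk averaged 156 ± 83.5 CPM in miR146aKO and 5.45 ± 4.63 in wildtype, Nfatc1 292 ± 228 and 103 ± 30.0, and Vav2 35.6 ± 31.7 and 2.54 ± 2.84.

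The inhibitory side of the pathway stood higher as well. Of 27 tested inhibitory receptors, phosphatases and adaptors, 23 were higher in miR146aKO (1 called, median 1.16), 21 in Runx1mut (0 called, median 1.01) and 21 in miR146aKO_Runx1mut (0 called, median 1.67). In the same order, 49.9%, 50.3% and 51.3% of all tested genes were higher. Lilrb4a, an inhibitory receptor of myeloid cells, averaged 46.2 ± 16.0 CPM in miR146aKO, 44.2 ± 29.6 in Runx1mut, 37.8 ± 17.2 in miR146aKO_Runx1mut and 3.15 ± 1.87 in wildtype. All 9 altered libraries lay above wildtype, as for Fcgr2b. Cd22, an inhibitory receptor of B cells, was at 57.2, 439 and 486 CPM in miR146aKO and at 0.410, 2.00 and 0 in wildtype, and Pirb averaged 122 ± 91.3 in miR146aKO and 7.18 ± 4.96 in wildtype. Ptpn22, a phosphatase that acts on Src and Syk family kinases, averaged 205 ± 157 CPM in miR146aKO and 30.7 ± 12 in wildtype. Siglecf, an inhibitory lectin of eosinophils, had 1, 1 and 0 counts in miR146aKO and 144, 103 and 220 in miR146aKO_Runx1mut. It had 105, 69 and 104 counts in Runx1mut and 14, 8 and 32 in wildtype. Its rise with averaged mutant Runx1, 4.83 ± 0.74 (edgeR adjusted p = 0.0244), thus rests in part on few miR146aKO counts. It was the 1 pathway gene called for averaged mutant Runx1. No pathway gene was called there by limma-voom, with the Y-linked covariate, or with any 1 library left out other than A031, A042 and A047.

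Over the 12 libraries, the genes whose log2 CPM most resembled the mean of the standardised members, among 9626 ranked, were Cfp (Pearson r = 0.965), Tlr7 (0.951), Adgre1 (0.921), Cndp2 (0.918), Trp53inp2 (0.911), Slc40a1 (0.896), Tlr1 (0.892) and Lamp1 (0.885). For Tyrobp alone they were Tlr7 (0.960), Cfp (0.871), Man2b1 (0.838), Camsap2 (0.824) and Crat (0.823). Among the members themselves the highest pair was Fcer1g with Fcgr1 (r = 0.918), and the lowest was Btk with Fcgr4 (r = -0.230). Btk stood apart from the rest, with no r above 0.481 to any other member. These are descriptions over libraries that share genotypes.

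Markers of other cell types were set beside the members, and not every list moved with them. The monocyte and macrophage markers (15 genes) summed to 1414 to 12021 CPM in miR146aKO, 346 to 1937 in Runx1mut, 2408 to 8981 in miR146aKO_Runx1mut and 310.2 to 1596 in wildtype. All 15 had counts in 9 libraries, and C1qa was at 0 in A021 and A015 and Ms4a7 in A042 and A015. The summed CPM of the 9 members was 485, 2214 and 1957 in miR146aKO, 713, 602 and 1015 in Runx1mut, 839, 785 and 1823 in miR146aKO_Runx1mut, and 197, 355 and 453 in wildtype. The 3 libraries highest in the summed monocyte and macrophage markers (A150, A151 and A051) were also the 3 highest in the members. Mrc1 was at 1900, 1958 and 1031 CPM in these 3 and Vcam1 at 2058, 1814 and 1889. Other genes of the list did not follow the sum. F13a1 was at 24.9 and 5.36 CPM in A150 and A151, against 905, 237 and 803 in Runx1mut. Ccr2 was at 11.9 and 7.55 CPM there, against 5.06, 109 and 4.56 in wildtype. All 9 altered libraries lay above wildtype in the members' sum, while A042, A047 and A058 lay below A040 of wildtype in the monocyte and macrophage markers.

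B lineage markers (11 genes) summed to 474 to 2772 CPM in miR146aKO, 13.5 to 157 in Runx1mut, 55.5 to 109 in miR146aKO_Runx1mut and 20.7 to 108 in wildtype. All 11 had counts in A150, A151 and A031, Vpreb1 and Igll1 were at 0 in A047, and Pax5 was at 0 in all 3 wildtype libraries. Blk, Cd79a, Cd79b and Cd22 of the lists above are on this marker list too, as Cd3e, Cd3g, Cd247 and Lck are on that of T and NK cells. T and NK markers (11 genes) summed to 2084 CPM in A047, 233 and 298 in the other miR146aKO libraries, 96.0 to 244 in Runx1mut, 197 to 770 in miR146aKO_Runx1mut and 168 to 471 in wildtype, with 6 to 10 of the 11 having counts and Cd3g at 0 in all 3 miR146aKO_Runx1mut libraries. Neutrophil markers (12 genes) summed to 3848 to 12176 CPM in miR146aKO, 2731 to 56697 in Runx1mut, 13423 to 60050 in miR146aKO_Runx1mut and 2318 to 28735 in wildtype, and Mmp8 was at 0 in A001 and A053 and Cebpe in A053. Mpo alone gave 48564 CPM of that sum in A001 and 22961 in A040, and genes within the list differed. Mpo was at 1080 and 108 CPM in A150 and A151, against 1076, 22961 and 5349 in wildtype. S100a9 was at 2474 and 1467 CPM there, against 396, 492 and 762 in wildtype. Ngp was at 743 and 744 CPM there, against 159, 224 and 353. Y-linked genes summed to 99.3 to 241 CPM in miR146aKO, 26.2 to 170 in Runx1mut, 13.8 to 214 in miR146aKO_Runx1mut and 0.547 to 32 in wildtype. Stem cell markers (10 genes) summed to 174 to 443 CPM in miR146aKO, 200.4 to 2656 in Runx1mut, 97.2 to 1580.0 in miR146aKO_Runx1mut and 1512 to 3382 in wildtype, with Hoxb5 at 0 in 4 libraries and Fgd5 in 2. Mast cell and basophil markers (8 genes) summed to 7.02 to 51.5 CPM in miR146aKO, 253 to 2116 in Runx1mut, 99.9 to 423 in miR146aKO_Runx1mut and 13.1 to 153 in wildtype, with Prss34 at 0 in 10 libraries. The part of these cell types and of the mice's sex in the members' values was not tested beyond the fit with the Y-linked covariate. Like the fit without it, that fit called 0 members, and members higher at an unadjusted p under 0.05 came to 5 in place of 8 in miR146aKO and to 3 in place of 7 in miR146aKO_Runx1mut, against wildtype.

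**Figure D4:**
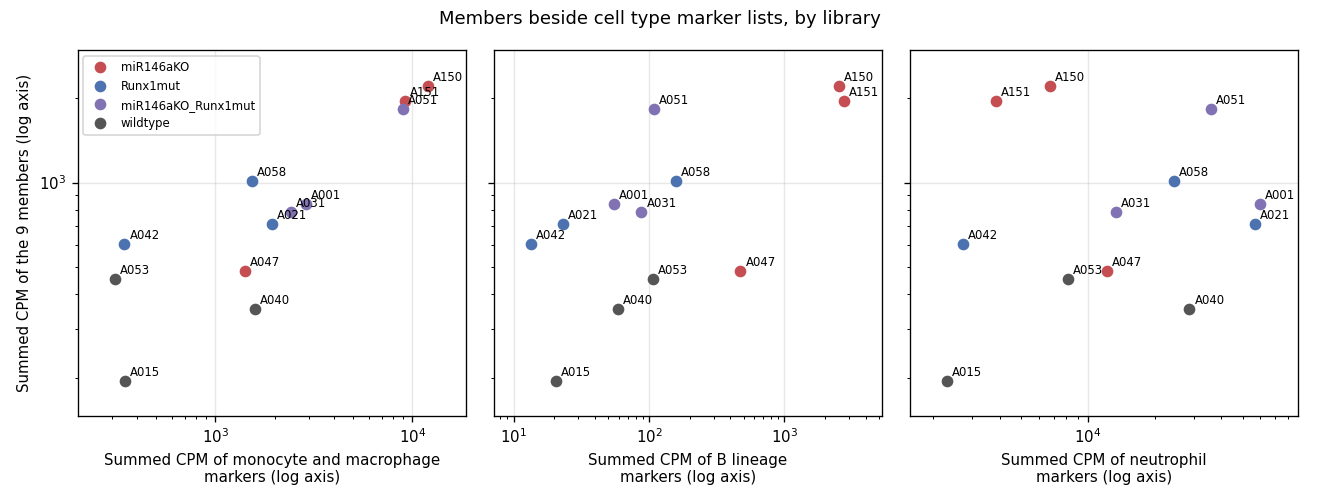
Summed CPM of the 9 members (vertical, log axis) against the summed CPM of monocyte and macrophage, B lineage and neutrophil markers (horizontal, log axes), 1 labelled point per library coloured by genotype. A150, A151 and A051 are highest for the members and for the summed monocyte and macrophage markers, and the miR146aKO libraries are the highest in B lineage markers (474 to 2772).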

How the data were processed

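RNA of sorted marrow cells was amplified to double-stranded cDNA with a NuGEN Ovation kit and made into libraries with Nextera XT, per the labels' protocols, and such libraries keep no strand. The deposited table holds raw read counts per gene symbol, and the submitters' processing notes name HISAT2 2.0.4, featureCounts 1.5.2 and FastQC 0.11.2, with build mm10. How reads were assigned was not given in the sources used here. No column was left unused.

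The counts were tested in R 4.3.3 with edgeR 4.0.16 (quasi-likelihood) in 1 fit of all 12 libraries. It used TMM library sizes and the default low-count filter, which kept 12744 genes (10 counts at the median library size in 3 libraries). p-values were adjusted by Benjamini-Hochberg over all tested genes, with a threshold of 0.05. The common biological coefficient of variation was 0.809. All 9 members passed the filter, Fcgr1 and Fcgr4 in no wildtype library. The code was tested on simulated counts of smaller spread than these data, so that test does not show how the fit performs at the spread seen here. Levels are CPM, or CPM per kb of GENCODE exonic length on GRCm38, where 95.7% of symbols matched. Alternatives were no filter, RLE size factors, DESeq2 1.42.0, limma-voom 3.58.1, the compared groups alone, a Y-linked covariate, no Rn45s, and each of 12 libraries left out. Rn45s, a ribosomal RNA gene, took 3.91% to 17.8% of counts.

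The members, lists and tests were chosen with earlier results of these data known. Members were always named. Other pathway genes were named when called, or as the 4 of smallest p per list for loss of miR-146a, against wildtype or averaged, and 1 gene that this rule names is not reported here. Likeness was ranked among genes with mean log2 CPM of at least 2. Amplified reads are not independent molecules, so floors of 3 counts cover counting error only.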

Additional observations from a re-analysis of the deposited data

Results flagged for a closer look

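Fcgr2b values lay on opposite sides of the reference means in the 2 backgrounds. Each miR146aKO library lay above the wildtype mean, while each miR146aKO_Runx1mut library lay below the Runx1mut mean, and each Runx1mut library lay above the wildtype mean while each miR146aKO_Runx1mut library lay below the miR146aKO mean. The Runx1mut mean of 56.9 CPM was raised by A058 (100.4), and the libraries of that comparison overlapped. The log2 fold change of miR146aKO_Runx1mut was -0.74 ± 0.76 against Runx1mut and -0.60 ± 0.76 against miR146aKO, and neither was called. The test of the difference gave an interaction of -3.59 ± 1.11 (log2, SE, edgeR adjusted p = 0.341) and so was not called. For Syk, each Runx1mut library lay above the wildtype mean and each miR146aKO_Runx1mut library below the miR146aKO mean, with an interaction of -1.94 ± 0.58 (edgeR adjusted p = 0.341). Lyn showed the same split of directions for mutant Runx1, with an interaction of -1.93 ± 0.88 (edgeR adjusted p = 0.515). None of the 3 interactions was called under any alternative, and the adjusted p ran from 0.0562 to 0.692 for Fcgr2b, from 0.0931 to 0.695 for Syk and from 0.217 to 0.766 for Lyn.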

How the results depend on the processing

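Members called changed as follows, with 0 called by edgeR in each comparison as reported. In miR146aKO against wildtype the count was 8 with no count filter, 7 by DESeq2, 1 by limma-voom and 0 to 2 when 1 library was left out (2 without A042 or A047, 1 without A001). In Runx1mut against wildtype it was 3 with no count filter and 1 by DESeq2, in miR146aKO_Runx1mut against wildtype 5 and 2, and in miR146aKO_Runx1mut against miR146aKO 1 by DESeq2. For averaged loss of miR-146a it was 5 with no count filter, 5 by DESeq2 and 0 to 4 with 1 library left out (4 without A047, 1 without A031), and for averaged mutant Runx1 2 and 1. The cause was not tested. All other settings gave 0 members in each comparison.

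Pathway genes called in miR146aKO against wildtype were 2 as reported, 33 with no count filter, 26 by DESeq2, 8 in the compared groups alone, 0 with the Y-linked covariate and 0 to 11 with 1 library left out (0 without A015, A040, A053 or A151, 1 without A150, 5 to 9 without A001, A021, A042, A051 or A058, 11 without A047). In Runx1mut against wildtype they were 0, then 10 with no count filter, 5 by DESeq2 and 0 to 1 with 1 library left out (1 without A042). In miR146aKO_Runx1mut against wildtype they were 0, then 11 and 7, and against Runx1mut 0, then 5 with no count filter. Against miR146aKO they were 0, then 16 with no count filter, 1 with RLE size factors, 10 by DESeq2 and 1 without Rn45s. For averaged loss of miR-146a they were 3, then 28 with no count filter, 21 by DESeq2, 0 by limma-voom, 0 with the Y-linked covariate and 0 to 8 with 1 library left out (8 without A047, 5 without A001, 2 without A058, 4 without A031, 0 without any other). For averaged mutant Runx1 they were 1, then 14, 11, 0 and 0 in the same settings and 0 to 2 with 1 library left out (2 without A042, 1 without A031 or A047, 0 without any other). For the interaction they were 1, then 18, 9, 0 and 0, and 0 to 1 with 1 library left out (1 without A042, 0 without any other).

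Over all genes, miR146aKO against wildtype called 23, then 796 with no count filter, 839 by DESeq2, 76 by limma-voom, 158 in the compared groups alone, 0 with the Y-linked covariate and 2 (without A053 or A151) to 135 (without A047) with 1 library left out. Averaged loss of miR-146a called 51, then 624 and 504 in the first 2 of these settings and 2 by limma-voom and 2 with the covariate, and 0 (without A015, A042, A053, A150 or A151) to 193 (without A047) with 1 library left out. The double genotype against miR146aKO called 2 lower genes and 0 higher, then 9 lower and 4 higher with RLE size factors and 7 and 4 without Rn45s. With no count filter (19210 genes tested) and by DESeq2 (12744) that comparison called 549 and 653. In these settings Runx1mut against wildtype called 162 and 115, and miR146aKO_Runx1mut called 256 and 192 against wildtype and 144 and 78 against Runx1mut. Averaged mutant Runx1 called 12, then 460 and 401, and the interaction 3, then 268 and 166.

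Of the member fold changes named in the text, those of Btk and Fcer1g against wildtype and the interactions of Fcer1g and Fcgr1 changed sign with 1 library left out. Btk in miR146aKO was 0.24 as reported, -0.050 without A015, -0.047 without A040, -0.039 without A150, and at most 0.94 with 1 library left out. Btk in miR146aKO_Runx1mut was -0.57 as reported and ran from -0.88 (without A040) to 0.10 (without A053). Fcer1g in Runx1mut was 1.07 and ran from -0.34 (without A058) to 2.01 (without A040). The interaction of Fcer1g was -1.38 and ran from -2.36 (without A040) to 0.034 (without A058), and that of Fcgr1 was -2.97 and ran from -4.97 (without A051) to 0.94 (without A058). Mean levels moved by less than 1 SD in 69 of 72 comparisons with RLE size factors or without Rn45s. The exceptions were Fcgr2b in miR146aKO (51.9 CPM, then 53.9 and 57.6) and Lyn in Runx1mut without Rn45s (99.0 CPM as reported, then 110.4). No paired analysis was possible because the columns of the count table carry no replicate number. The wildtype levels of Fcgr1 and Fcgr4 rest on 8 and 12 counts over 3 libraries, so their fold changes depend on few reads.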
